A study of Mus musculus with 2 samples.

Results

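The genes for the proteins of the cytosolic ribosome were examined in the pregnant mouse uterus. They were taken by symbol from the deposited expression table: the Rpl and Rps genes, the stalk genes Rplp0, Rplp1 and Rplp2, and Rpsa. Rows with a pseudogene suffix and the Rps6k kinases were left out. This gave 84 genes of the 22740 in the table. Of these, 77 were main genes (46 of the large subunit, 31 of the small subunit) and 7 were minor paralogues, the genes Rpl3l, Rpl7l1, Rpl10l, Rpl22l1, Rpl39l, Rps4y2 and Rps27l. The samples were whole uteri of 2 separate C57BL/6 mice on day 4 of pregnancy, 1 RNA sequencing library each, called uterus 1 and uterus 2. The sample titles mark both as WT (wild type), and the labels give no treatment or comparison group, so both libraries are replicates of 1 group, and the age of the mice is not given in the sources used here. Levels are RPKM, reads scaled to the length of the transcript and the size of the library.

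Each ribosome has a large and a small subunit, and each subunit is built on ribosomal RNA from single copies of most of its proteins. The main genes are transcribed in all growing cells, and their mRNAs are known for a run of pyrimidines at the 5′ end, the 5′ TOP element, through which TOR signalling and the binding protein Larp1 control translation. A few genes have a paralogue whose protein can take the place of the main one, and several of these paralogues are known for use in a single tissue, such as testis or striated muscle. On day 4 of pregnancy the mouse uterus becomes ready for the implanting embryo, while its luminal epithelium, glands, stroma and muscle are all present in whole-organ RNA. In such RNA, fewer cells of a type and less RNA per cell cannot be told apart.

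The markers of the organ were present. All 8 uterine markers (Pgr, Esr1, Hoxa10, Hoxa11, Myh11, Des, Krt8 and Krt18) were at 1 RPKM or more in both libraries, with summed levels of 1045 and 1093 RPKM in uterus 1 and uterus 2. Leukocyte markers summed to 253 and 275 RPKM, 218 and 236 of it from Lyz2, with 4 of 5 at 1 RPKM or more in both. The scaling totals behind the RPKM values were 3834174 and 4256101 reads, so 1 read in a transcript of 1000 bases is worth well under 1 RPKM.

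The sequence at the start of these genes is shown first, since the pyrimidine run is the feature the main genes are known to share. Promoters from the RefSeq table (build GRCm38.p6, 250 bases before to 50 after each annotated start) were matched for 63 of the 84 members, 57 main genes and 6 minor paralogues. A run of at least 8 pyrimidines (C or T on the gene's strand) within 40 bases either side of the start was present in 40 of 57 main genes, 70.2%, against 29.2% of the 27025 promoters of the table. Of the minor paralogues, 4 of 6 had such a run, too few to compare the shares. In Rps27l and Rpl39l the run of 9 bases begins at -22 and -26 and ends before the start. A run in this window thus need not lie in the mRNA. The run was present in 3 of 5 elongation factors, 7 of 14 initiation factors and 1 of 12 biogenesis genes. It was also present in 3 of 8 RNA polymerase I genes, 2 of 8 TOR genes and 3 of 3 other ribosomal protein genes. The opposite search, for 8 purines, matched 12 of 57 main genes, 21.1%, against 31.8% of the table. The median longest pyrimidine run was 10 bases in main genes and 6 in the table. The windows below run from 40 bases before to 30 bases from the annotated start, with the longest run in capitals where it is 8 bases or more. They show 3 of the most abundant genes (Rps12, Rps18, Rps4x), 2 main genes listed near 0 (Rps27, Rpl26), and the most abundant and an undetected minor paralogue (Rpl22l1, Rpl10l).
Rps12, chr10:23787180-23787249, minus strand: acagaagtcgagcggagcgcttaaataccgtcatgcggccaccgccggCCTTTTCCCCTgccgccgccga
Rps18, chr17:33955636-33955705, minus strand: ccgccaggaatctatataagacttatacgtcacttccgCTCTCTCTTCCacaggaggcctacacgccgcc
Rps4x, chrX:102189362-102189431, minus strand: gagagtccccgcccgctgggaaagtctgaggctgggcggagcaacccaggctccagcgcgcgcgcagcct
Rps27, chr3:90213619-90213688, minus strand: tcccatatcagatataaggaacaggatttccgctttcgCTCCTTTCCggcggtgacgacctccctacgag
Rpl26, chr11:68901526-68901595, plus strand: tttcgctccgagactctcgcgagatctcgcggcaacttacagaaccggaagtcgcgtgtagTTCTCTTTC
Rpl22l1, chr3:28805468-28805537, plus strand: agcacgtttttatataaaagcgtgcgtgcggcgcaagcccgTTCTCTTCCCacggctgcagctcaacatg
Rpl10l, chr12:66284372-66284441, minus strand: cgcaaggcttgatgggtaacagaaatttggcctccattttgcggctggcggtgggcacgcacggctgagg
In Rps18 and Rps27 the run begins 2 bases before the annotated start, and in Rpl22l1 1 base after it. Rps12 has a run of 11 bases that begins 8 bases after the start. The run of Rpl26 continues past the end of the window to 14 bases. Rps4x, at over 1000 RPKM, and Rpl10l, listed at 0, both have a longest run of 5 bases near the annotated start. The match depends on where the annotation puts the start, and a missing match says only that these letters are not in this window.

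Other motifs were searched on both strands over the 300 bases. The ETS core CCGGAAG was present in 23 of 57 main promoters, 40.4%, against 9.12% of all promoters. The YY1 motif AANATGGC was present in 10, 17.5%, against 6.23%. The TATA motif TATAAA was present in 5, 8.77%, against 14.2%, and CCAAT in 18, 31.6%, against 37.9%. The ETS core was also present in 4 of 8 matched RNA polymerase I genes, 4 of 8 TOR genes, 5 of 14 initiation factors and 4 of 12 biogenesis genes. The longer NRF1 motif matched 1 main promoter, 1.75%, against 0.977% of all promoters. Among main genes with a matched promoter, leaving out those near 0 described below, the 37 with the pyrimidine run had a median of 729 RPKM and the 17 without it 826 RPKM.

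Most ribosomal protein genes were among the most abundant messages of the uterus. Of the 84 members, 74 were at 100 RPKM or more in both uteri, against 1.92% of all rows of the table. At 1000 RPKM or more in both uteri there were 20 members, against 0.158% of all rows (36 rows, members included). The 84 genes made up 61 of the 100 highest rows by mean RPKM. The median of all rows was 3.28 and 3.23 RPKM, and that of the members 740 and 755 RPKM. Their summed RPKM was 14.5% of the table's sum in uterus 1 and 14.9% in uterus 2, or 14.7% ± 0.265 (SD, n = 2). Their mRNAs are short, so their share of reads was smaller, 4.70% and 4.85%.

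By median RPKM, small-subunit genes were slightly higher than large-subunit genes in both uteri. The median of the 46 main large-subunit genes was 730 RPKM in uterus 1 and 761 RPKM in uterus 2, 745 ± 22.3 (SD, n = 2). The median of the 31 main small-subunit genes was 824 and 849 RPKM, 837 ± 17.8 (SD, n = 2). The large-subunit median was thus 0.886 of the small-subunit median in uterus 1 and 0.896 in uterus 2. Without the 4 main genes near 0 described below, the ratio was 0.882 in uterus 1 and 0.915 in uterus 2. The spread within each subunit was far wider than this gap: the quartiles of large-subunit genes were 473 and 933 RPKM in uterus 1, and those of small-subunit genes 702 and 1039 RPKM. The subunits were not tested against each other, because genes are not replicates. The transcript lengths behind the RPKM values, recovered as described below, had a median of 788 bases in large-subunit genes and 602 in small-subunit genes. RPKM divides by this length, and the part of length in the gap between the subunits was not tested.

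**Figure D1:**
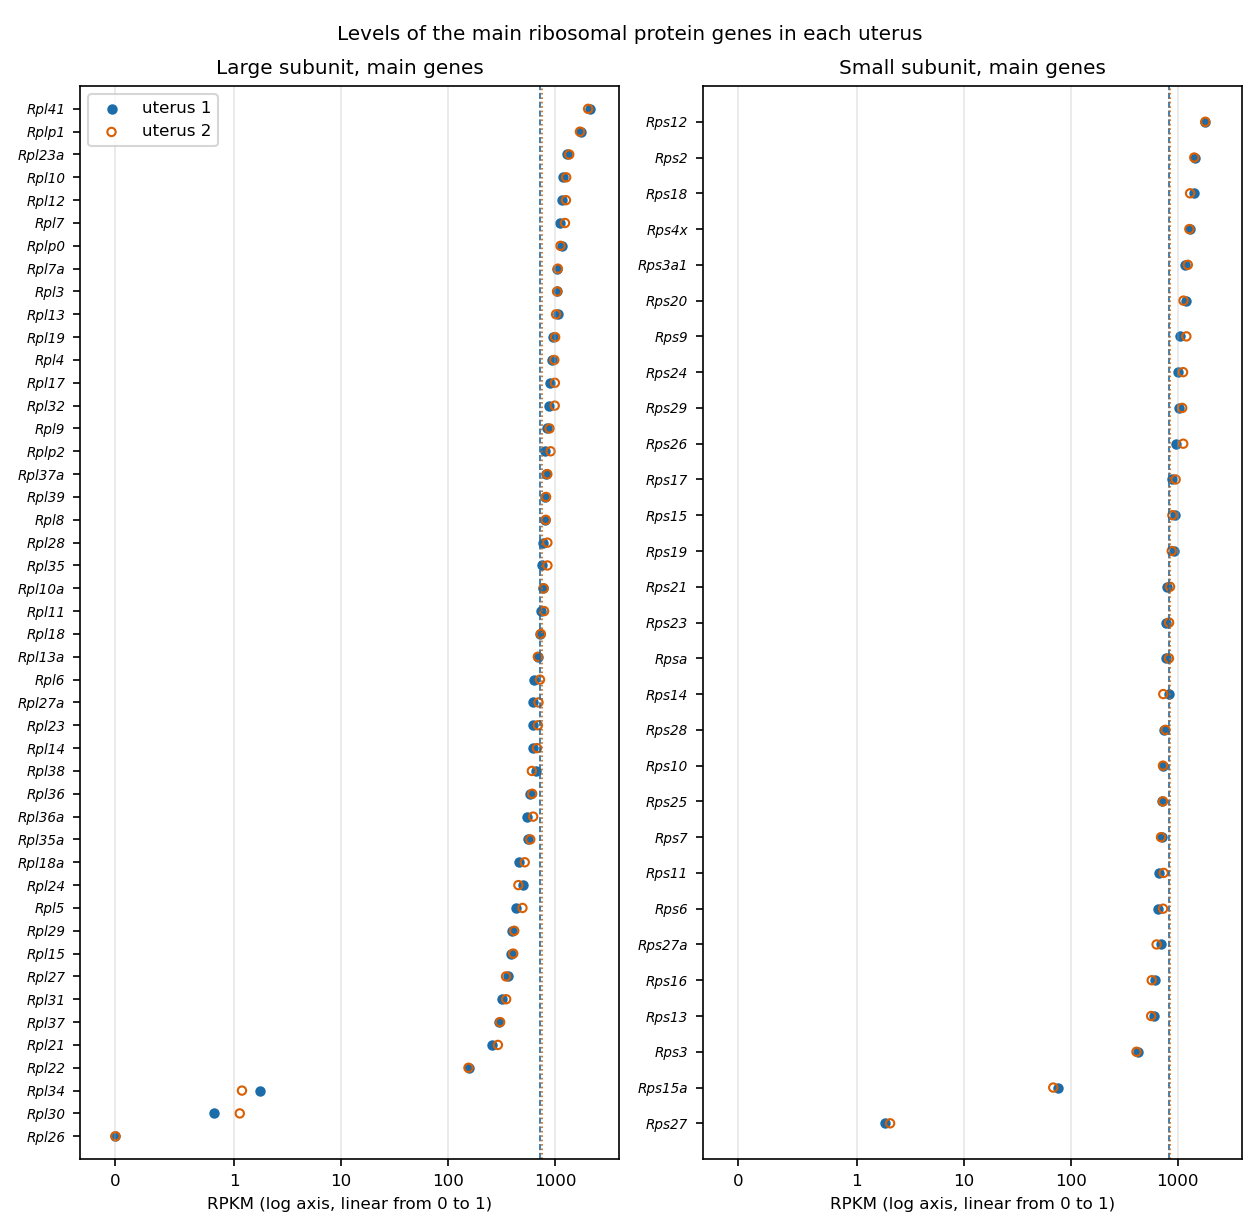
RPKM of each main ribosomal protein gene in uterus 1 (filled points) and uterus 2 (open points), on a log axis that is linear from 0 to 1, for the main genes of each subunit that are reported here by name, sorted by mean; dashed and dotted vertical lines are the medians of uterus 1 and uterus 2 over all main genes of the subunit. Most genes sit between 500 and 1500 RPKM, and Rpl26, Rpl30, Rpl34 and Rps27 stand far below the rest at about 2 RPKM or less.

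The highest member, Rpl41, which encodes the smallest ribosomal protein, reached 2129 RPKM (uterus 1) and 2044 RPKM (uterus 2). Rps12, a small-subunit gene, followed at 1789 and 1814 RPKM. Rplp1, one of the acidic stalk proteins, was at 1745 and 1714 RPKM. These 3 were the only members above 1500 RPKM on average, and their order was the same in both uteri.

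The genes that came next lay close together. Rps2 was at 1468 and 1430 RPKM, Rps18 at 1434 and 1308 RPKM, and the X-linked Rps4x at 1319 and 1287 RPKM. Rpl23a, a protein of the exit tunnel rim, was at 1284 and 1361 RPKM. The X-linked Rpl10, a late-joining protein of the large subunit, was at 1193 and 1273 RPKM, and Rpl12, at the stalk base, at 1176 and 1266 RPKM. The order of Rps18, Rpl23a and Rps4x differed between the uteri, so these neighbours are not resolved.

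The lowest main genes included several near 0. Rpl26, Rpl30, Rpl34 and Rps27 were at or near 0 and are given below. The next lowest was Rps15a, at 76.6 and 68.6 RPKM. Above it came Rpl22 (157 and 155 RPKM), Rpl21 (255 and 293 RPKM), Rpl37 (299 and 307 RPKM), Rpl31 (322 and 350 RPKM) and Rpl27 (366 and 349 RPKM). All 10 lowest main genes other than Rps15a and Rps27 belong to the large subunit.

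RPKM divides reads by the length of the transcript model, so reads and length are given for some of these genes. The reads and the transcript length behind each RPKM value were recovered from the ratio of both columns and the scaling totals. Rps15a held 1508 and 1499 reads, but its values fit a transcript of 5134 bases. Rpl22 held 1228 and 1348 reads over 2040 bases, and Rpl21 held 1818 and 2311 reads over 1856 bases. Among 63 main genes with a settled length and an unshared span, the 7 with 1500 bases or more had a median of 397 RPKM and the other 56 had 822 RPKM, with medians of 2732 and 2272 reads in uterus 1. This split is in part built into RPKM, which divides by that length, and it has exceptions. Rpl37 held 993 and 1133 reads over 867 bases and Rpl27 1029 and 1090 reads over 734 bases, both low with short models, while Rpsa, over 1861 bases, was at 778 and 829 RPKM. How much of each long model is transcribed in the uterus was not tested.

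The 4 main genes near 0 had 1 feature in common that no other main gene had. Rpl26 was listed at 0 in both uteri. Rpl30 was at 0.833 and 1.13 RPKM, from 2 and 3 reads. Rpl34 was at 1.75 and 1.18 RPKM, from 4 and 3 reads, and Rps27 was at 1.81 and 2.04 RPKM, from 4 and 5 reads. All 4 encode single-copy proteins of the ribosome, and each lies in the table over almost the same span as a second row on the same strand.

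Coordinates are on mouse build NCBIM37 (mm9). Rpl26 (chr11:68715068-68718036, plus strand, 4 exons) overlaps Gm15772 (68715091-68718036) over 99.2% of the longer span. Rpl30 (chr15:34370263-34373031, minus strand, 4 exons) overlaps Gm12191 over 98.4%. Rpl34 (chr3:130429749-130433226, minus strand, 5 exons) overlaps Rpl34-ps1 over 99.4%, and Rps27 (chr3:90016589-90017570, minus strand, 4 exons) overlaps Gm9846 over 99.9%. All 4 second rows were listed at 0 in both uteri, so neither row of any pair held more than 5 reads in either library.

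The same pattern held across the table. A mean under 2 RPKM was found for 45.3% of all rows. It was found for 272 of the 295 rows that share at least 80% of their span with another same-strand row, 92.2%, against 44.7% of the 22445 other rows. Among rows with protein-coding identifiers the shares were 91.9% of 270 and 41.2% of 20175. Only 2 of the 295 rows reached a mean of 10 RPKM, against 32.6% of the others. For the main ribosomal protein genes, all 4 with a shared span were under 2 RPKM and none of the 73 others was. The values of these 4 genes are therefore not read here as levels of their mRNA. For Rpl26, a count of 0 over its annotated 526 bases allows up to 1.49 RPKM in uterus 1 and 1.34 RPKM in uterus 2, for counting error only and for reads that the counting kept. How reads in shared spans were treated is not given in the sources used here, and its part in these values was not tested.

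The share of each transcript that has a copy elsewhere in the genome was measured as well. Ribosomal protein mRNAs have left many processed pseudogenes in mammalian genomes. For 76 main genes, transcripts were divided into all words of 50 bases, and a median of 62.5% of words was also found elsewhere in NCBIM37. Among the genes near 0, Rps27 had 99.7% of its words elsewhere, Rpl26 81.8%, Rpl30 62.8% and Rpl34 44.7%. Rps12 had 98.1% and was the second most abundant member. Rps3, at 423 and 412 RPKM, had 3.44%. Without the 4 shared-span genes, which leaves out the lowest values, the 13 main genes with over 90% of words elsewhere had a median of 983 RPKM, the 51 with 20 to 90% had 765 RPKM, and the 8 with under 20% had 891 RPKM. Across these 72 genes Spearman's rho of level with the share of words elsewhere was 0.26, as a description, since the genes share libraries and a common counting. The part of such copies in any level, those near 0 included, was not tested.

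**Figure D2:**
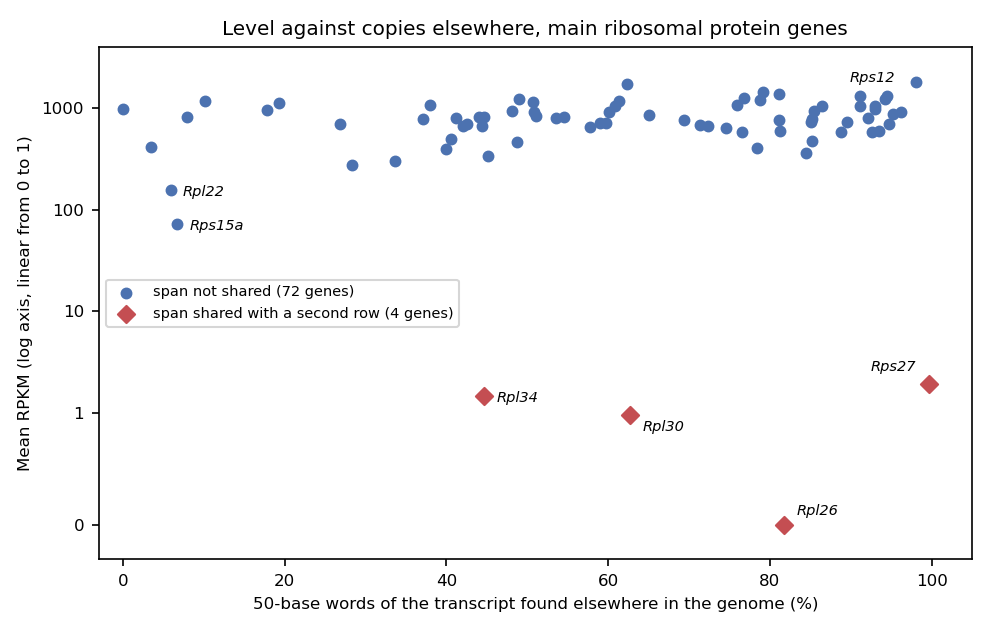
Mean RPKM of both uteri (log axis, linear from 0 to 1) against the percentage of 50-base words of the transcript found elsewhere in the genome, 1 point per main gene with an annotated transcript. The 4 genes with a shared span (diamonds) lie at about 2 RPKM or less, from 44.7% to 99.7% on the horizontal axis, a range in which most other main genes lie too.

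The minor paralogues ranged from 0 to the level of their main gene. Their median was 5.54 RPKM in uterus 1 and 8.24 RPKM in uterus 2, 6.89 ± 1.91 (SD, n = 2). Only Rpl22l1 and Rps27l were at 100 RPKM or more in both uteri. The coding sequences of the 7 pairs were 54.1% (Rpl7 and Rpl7l1) to 85.3% (Rpl39 and Rpl39l) identical in alignment, and no pair shared a stretch of 50 coding bases.

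Rpl22l1 was as abundant as Rpl22. Rpl22, an RNA-binding protein of the large subunit, is known to hold down the mRNA of its paralogue. Rpl22l1 was at 169 and 128 RPKM, from 309 and 259 reads, beside Rpl22 at 157 and 155 RPKM. It made up 51.8% of the summed RPKM of the pair in uterus 1 and 45.1% in uterus 2, 48.5% ± 4.76 (SD, n = 2). Which of the pair was higher differed between the uteri. Rpl22 is scored over a model of 2040 bases and Rpl22l1 over 477 bases, so in reads Rpl22 was the larger in both.

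Rps27l, a gene known as a p53 target, was at 143 and 117 RPKM, 130 ± 17.9 (SD, n = 2). It exceeded Rps27 in the table, but Rps27 is a gene of shared span, so this pair gives no comparison. Rpl7l1, a nucleolar relative of Rpl7, was at 47.1 and 47.5 RPKM, from 471 and 527 reads. It was 3.87% ± 0.256 (SD, n = 2) of the summed level of its pair, beside Rpl7 at 1117 and 1241 RPKM.

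Rps4y2, a single-exon row on chromosome 6 with a non-coding identifier, was at 5.54 and 8.24 RPKM, from 20 and 33 reads, beside Rps4x at 1319 and 1287 RPKM. It lies on the strand opposite to a row for Tmtc1, and whether counting used strand is not given in the sources used here. Rpl3l, whose product replaces Rpl3 in heart and skeletal muscle, was at 0.164 and 0.295 RPKM, from 1 and 2 reads, beside Rpl3 at 1047 and 1048 RPKM. Markers of striated muscle summed to 98.2 and 112 RPKM, 78.4 and 89.4 of it from Acta1. Of the 8 markers, 4 were at 1 RPKM or more in both uteri, Myh2 was at 0 in both, and their part in the Rpl3l reads was not tested.

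Rpl10l and Rpl39l, known for male germ cells, were listed at 0 in both uteri. A count of 0 allows up to 0.766 and 0.690 RPKM for Rpl10l and up to 0.972 and 0.876 RPKM for Rpl39l in uterus 1 and uterus 2. As Rpl26 is also listed at 0, a 0 in this table is not read as absence of the mRNA. Their main genes were at 1193 and 1273 RPKM (Rpl10) and 809 and 826 RPKM (Rpl39). Of 6 germ-cell markers, Dazl, Prm2 and Tnp1 were at 0 in both uteri, and Sycp3 was at 6.97 and 7.54 RPKM. The coding sequences of Rpl39 and Rpl39l are shown because both genes make a protein of the same length while 1 is abundant and the other is listed at 0. Of 156 bases, 23 differ and are in capitals.
Rpl39: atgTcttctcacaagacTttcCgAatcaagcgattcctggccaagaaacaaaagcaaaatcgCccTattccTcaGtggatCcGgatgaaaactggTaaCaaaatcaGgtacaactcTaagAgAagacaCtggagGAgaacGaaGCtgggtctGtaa
Rpl39l: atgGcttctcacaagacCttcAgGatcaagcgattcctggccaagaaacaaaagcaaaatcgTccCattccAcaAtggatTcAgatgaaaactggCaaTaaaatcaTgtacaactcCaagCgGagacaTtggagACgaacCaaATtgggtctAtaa
The differing bases are spread along the whole sequence, and the longest identical stretch is 38 bases.

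**Figure D3:**
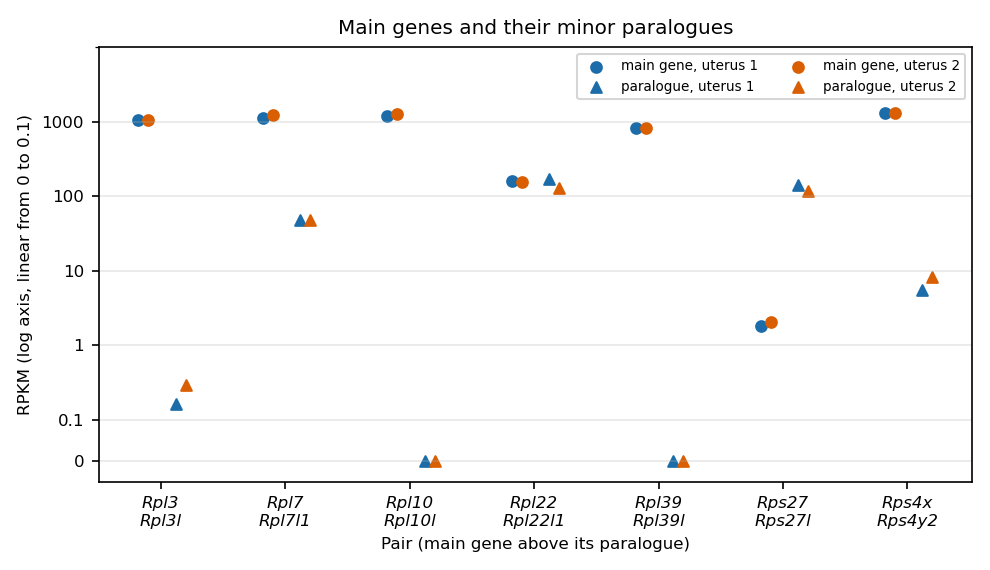
RPKM (log axis, linear from 0 to 0.1) of each main gene (circles) and its minor paralogue (triangles) in uterus 1 and uterus 2. Rpl22l1 reaches the level of Rpl22, Rpl7l1 stays near 47 RPKM, and Rpl10l and Rpl39l are at 0. Rps27, at 1.81 and 2.04 RPKM, is 1 of the 4 main genes that share their span with a second row.

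By role, the stalk genes were the highest group. The P stalk recruits the elongation factors to the large subunit. Its core Rplp0 was at 1154 and 1127 RPKM, and the acidic proteins were unequal, with Rplp1 at 1745 and 1714 RPKM and Rplp2 at 811 and 910 RPKM. All 4 genes of the stalk and its base, Rpl12 included, were at 100 RPKM or more in both uteri, with medians of 1165 and 1197 RPKM.

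Rpl5 and Rpl11 carry the 5S ribosomal RNA into the large subunit and bind Mdm2 when assembly fails. Rpl5 was at 436 and 497 RPKM and Rpl11 at 739 and 791 RPKM. Rpl5 is scored over 2019 bases and Rpl11 over about 594, and in reads Rpl5 was the larger, with 3373 and 4268 against 1684 and 2001.

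The exit tunnel and its rim hold Rpl4, Rpl17, Rpl19, Rpl23a, Rpl26, Rpl31, Rpl35 and Rpl39. Apart from Rpl26, they ran from Rpl31 at 322 and 350 RPKM to Rpl23a at 1284 and 1361 RPKM. Rpl4 and Rpl17, whose loops line the tunnel, were at 947 and 986 RPKM and at 891 and 998 RPKM. All 7 measured genes had a higher value in uterus 2, as did 60.4% of all rows with a mean of at least 100 RPKM. In the binomial test described below, Rpl17 and Rpl35 of these 7 passed (exact binomial adjusted p = 0.000846 and 0.00014). Among rows with a mean of at least 100 RPKM that are not members, 17.5% passed as higher in uterus 2. With the smallest reads Rpl35 did not pass (exact binomial adjusted p = 0.49).

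Of the small-subunit genes at the mRNA channel and head, Rps2 was the highest and Rps3 the lowest, at 423 and 412 RPKM over a length of 1878 bases. Rps6, the substrate of the S6 kinases, was at 653 and 731 RPKM, and Rps19, mutated in Diamond-Blackfan anaemia, at 935 and 880 RPKM. The genes discussed for selective translation lay below the median of their subunit or close to it: Rpl38 was at 669 and 608 RPKM, Rps25, near the lower quartile of the small subunit, at 707 and 730 RPKM, and Rpl10a at 771 and 784 RPKM. The X-linked genes did not stand below the rest, with Rps4x, Rpl10, Rpl39 and Rpl36a at a median of 1001 and 1050 RPKM.

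The other members of the ribosome, which the naming rule does not reach, were also abundant. Gnb2l1 (Rack1), a scaffold on the small subunit, was at 953 and 977 RPKM. Fau, which encodes a small-subunit protein, was at 385 and 398 RPKM, and Rpl36al was at 181 and 195 RPKM, beside Rpl36a at 550 and 625 RPKM.

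The levels of main genes were repeatable between the 2 mice. Leaving out the 4 genes of shared span, the median coefficient of variation between the libraries was 4.22% and the largest 11.1%, over 73 genes. On the log2 scale with a pseudocount of 0.1 RPKM, the 79 members with a mean of at least 1 RPKM had a median ratio of 0.05 for uterus 2 over uterus 1, beside 0.00 for all 13647 such rows. None of the 79 was 2-fold apart between the uteri, against 2.6% of those rows. The difference was positive in 54 of 79 members, against 50.1% of those rows. It was positive in 51 of 74 members with a mean of at least 100 RPKM, against 60.4% of the rows at that level.

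The reads of each gene were compared by a two-sided exact binomial test, with Benjamini-Hochberg adjustment over all 15115 rows with at least 6 reads. This compares 2 libraries and not conditions. At an adjusted p under 0.05 it called 22 of 79 tested members, against 4.87% of the rows. Such calls depend on depth: among rows with a mean of at least 100 RPKM that are not members, 31.1% were called, and 22 of the 74 members at that level were, so the members' share lay near that of other abundant genes. Of the 22, 18 were higher in uterus 2, against 2.27% of the rows, and 4 were lower, against 2.6%. Among the abundant rows that are not members, 17.5% were higher and 13.7% lower. With the smallest reads the values allow, 16 members were called, against 3.84% of the rows, and the call of Rpl35 in particular rests on a weakly settled factor.

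Of 44 tested large-subunit main genes, 13 were called and all 13 were higher in uterus 2. Of 31 small-subunit genes, 5 were called higher and 3 lower. Both counts stand beside the 17.5% higher and 13.7% lower among other abundant rows. With the smallest reads, 9 large-subunit calls were left, without Rpl12, Rpl32, Rpl35 and Rpl36a, and 6 small-subunit calls, without Rps18 and Rps27a. Of the 8 uterine markers, 3 were called between the same libraries, beside 31.1% of other abundant rows and 4.87% of all rows. The smooth muscle gene Myh11 (314 and 350 RPKM) and the epithelial Krt18 (70.4 and 94.3 RPKM) were higher in uterus 2. The progesterone receptor Pgr (77.5 and 66.4 RPKM) was lower. The other markers were not called, Des and Krt8 among them (exact binomial adjusted p = 0.955 and 0.296). With the smallest reads, 2 of the 8 were called. The part of these marker differences in the calls of ribosomal protein genes was not tested. The difference between the subunits was not tested. The median log2 ratio was 0.07 over large-subunit genes and 0.02 over small-subunit genes.

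Among members averaging 10 RPKM or more, the largest ratios toward uterus 2 were those of Rps26, Rps9 and Rpl6. Rps26, at the mRNA exit channel, was at 963 and 1128 RPKM, a log2 ratio of 0.23 (exact binomial adjusted p = 0.000119). Rps9 was at 1051 and 1207 RPKM, a log2 ratio of 0.20 (exact binomial adjusted p = 4.02e-06). Rpl6 was at 633 and 725 RPKM, a log2 ratio of 0.20 (exact binomial adjusted p = 2.6e-06). Below that mean, Rps4y2 had a log2 ratio of 0.56 from 20 and 33 reads (exact binomial adjusted p = 0.568). These ratios compare 1 animal with 1, and those of the main genes are small beside the range of their levels.

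Toward uterus 1, the largest ratios among members of at least 10 RPKM were those of Rpl22l1, Rps27l and Rps14. Rpl22l1 had a log2 ratio of -0.40 (exact binomial adjusted p = 0.0237), and Rps27l -0.28 (exact binomial adjusted p = 0.252). Rps14 was at 824 and 734 RPKM, a log2 ratio of -0.17 (exact binomial adjusted p = 0.0136). Rps18 and Rps27a were also called lower in uterus 2, with log2 ratios of -0.13 each, and both calls were lost with the smallest reads (exact binomial adjusted p = 0.171 and 0.0551). The 2 paralogues thus differed more between the mice than any main gene above 10 RPKM, and the ratio of Rps27l did not pass the test.

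**Figure D4:**
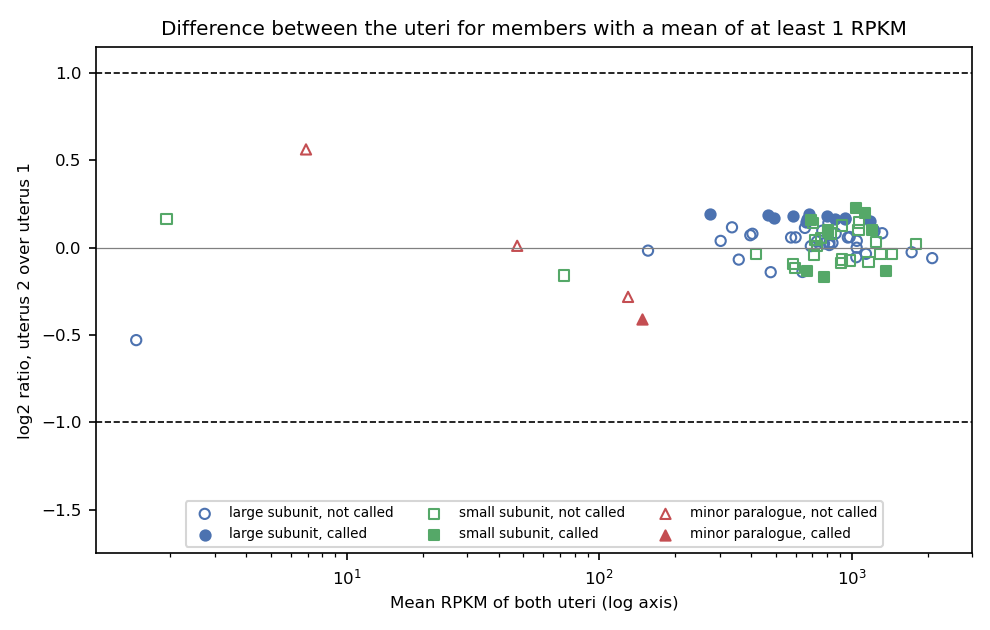
log2 ratio of uterus 2 over uterus 1 (pseudocount 0.1 RPKM) against mean RPKM on a log axis for the 79 members with a mean of at least 1 RPKM, with symbols for the subunit or class and filled symbols for genes called by the exact binomial test. All points lie inside the dashed lines at 2-fold, and main genes above 10 RPKM lie between -0.17 and 0.23.

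By list median, other genes of translation were lower than the main ribosomal protein genes, while single genes such as Eef1a1 and Npm1 overlapped with them or exceeded them. Of 7 elongation genes, Eef1a1, which brings aminoacyl-tRNA to the ribosome, was at 5678 and 6182 RPKM and Tpt1, a TOP mRNA often grouped with them, at 1663 and 1795 RPKM. The median of the list was 571 and 633 RPKM, and 4 of its 6 tested genes were called, all higher in uterus 2, beside 17.5% of abundant rows called higher. Eef1a2, the form of muscle and nerve, was at 0.127 and 0.115 RPKM.

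The 19 initiation factor genes had a median of 112 and 118 RPKM, highest in Eif4a1 (342 and 313 RPKM) and Pabpc1 (283 and 246 RPKM). In this list 2 genes were called higher and 3 lower in uterus 2, beside 2.27% and 2.6% of all rows and 17.5% and 13.7% of abundant rows. With the smallest reads, 4 of these 5 calls were left. The 16 genes of ribosome biogenesis had a median of 27.8 and 24.96 RPKM, with 1 called in each direction, beside 4.87% of all rows called in either. Npm1, a nucleolar chaperone, was the highest at 378 and 461 RPKM and was called higher in uterus 2, and Nop56 followed at 62.8 and 66.7 RPKM. Nucleolin, Ncl, was the gene called lower, at 53.2 and 42.5 RPKM.

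The 8 genes of RNA polymerase I, which transcribes ribosomal RNA, had a median of 23.4 and 22.6 RPKM, highest in Polr1d and Polr1c at 41.1 and 38.8 RPKM and at 42.4 and 35.3 RPKM. The 10 genes of TOR signalling had a median of 17.2 and 14.3 RPKM, highest in Larp1 (31.2 and 28.3 RPKM) and Larp4 (25.04 and 27.97 RPKM). None of the polymerase or TOR genes was called by the exact binomial test, and at an unadjusted p under 0.05 the counts were 0 of 7 and 2 of 10, beside 15.9% of all rows. The medians of both subunits' main genes thus lay more than an order of magnitude above those of biogenesis, polymerase I and TOR genes in both uteri.

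**Figure D5:**
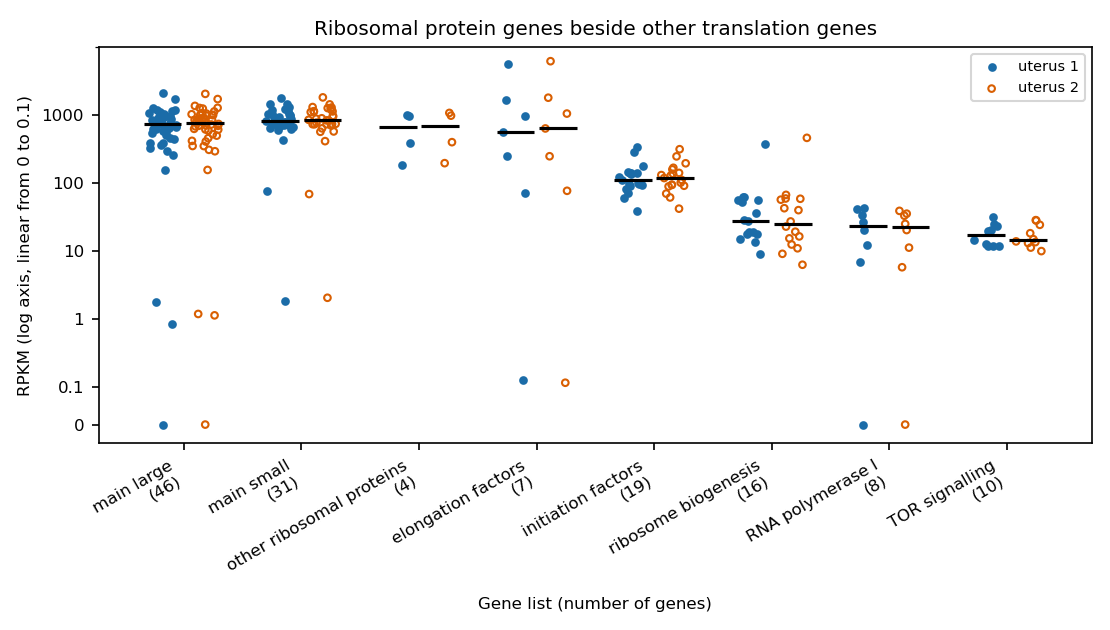
RPKM (log axis, linear from 0 to 0.1) of main ribosomal protein genes and 6 lists of other translation genes in uterus 1 (filled) and uterus 2 (open), with a bar at each median. The medians of the main ribosomal protein genes are 730 RPKM or more, and those of initiation, biogenesis, polymerase I and TOR genes are at 118 RPKM or less.

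Many members also carry small RNA genes. Small nucleolar RNAs guide the modification of ribosomal RNA and are often released from introns of these genes. Of the 84 members, 21 (25%) held a small RNA row within their span on the same strand, against 79 of 22625 rows of other kinds (0.349%, members included). They held 31 of the table's 115 small RNA rows. Rpl13a held 4 of them and Rpl23a 3. The 84 genes lay on 19 chromosomes, with 14 on chromosome 7, 16.7% of members against 9.10% of all rows. Of the 7 members with a row on the opposite strand (Rpl5, Rpl31, Rpl32, Rpl35, Rps25, Rps27a and Rps4y2), reads from each gene and its partner cannot be told apart if counting ignored strand.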

How the data were processed

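RNA from 2 whole uteri (TRIzol, TruSeq kit from 1 microgram, poly-A purification, HiSeq2500, per the labels' protocols and design text) was given by the authors as RPKM per gene in 2 deposited tables, with identical values for all 22740 rows they share. The submitters' processing notes name TopHat, edgeR and mm9, without versions. The counting program, annotation release, strand setting and treatment of reads in several places are not given in the sources used here. Members and lists were chosen with earlier results of these data known. Whether the mice shared a batch is not given.

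RPKM is not a count, so reads were recovered. The scaling totals were read from single-exon genes, where 96.0% of 646 and 95.5% of 649 values gave whole reads (tolerance 0.01), and each gene's pair of values was set as a fraction of integers. Any multiplier that both reads share was picked by closeness to a GENCODE M1 transcript length; it was above 1 for 14 of the 81 members with reads, and was weakly settled for 10. The recovered reads summed to 3826090 and 4252855, and 41 rows gave none. Medians, ratios (pseudocount 0.1 RPKM, mean of at least 1 RPKM) and the exact binomial test were computed in Python 3.11.15 with scipy 1.17.1, after the recovery and the test were tested on simulated data. A shared span means at least 80% overlap of both spans on 1 strand. Genes were named by rule: all minor paralogues, members listed at 0, the 10 highest and 10 lowest main genes, the 3 largest ratios each way (mean of at least 10 RPKM), the role lists, and the 2 highest of each pathway list. A few genes that the rule names are not reported here. Genes named as called in the lists beyond this rule were chosen after their values were seen. The limits given for a count of 0 describe counting error alone. Sequences came from RefSeq (promoters) and GENCODE M1 transcripts (coding sequences).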

Additional observations from a re-analysis of the deposited data

How the results depend on the processing

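With 2 libraries, each median is limited to the spread of 2 animals. On the TPM scale the medians were 1763 (large subunit), 1979 (small subunit) and 16.3 (minor paralogues) TPM, a change of unit that kept their order. Without the genes of shared span, a choice made after seeing the data, the large- and small-subunit medians were 771 and 857 RPKM. Without the members listed at 0 the median of minor paralogues was 47.3 RPKM. Over rows with protein-coding identifiers alone the members' share of summed RPKM was 17.3%. Leaving out a library gave large-subunit medians of 730 to 761 RPKM, small-subunit medians of 824 to 849 RPKM, paralogue medians of 5.54 to 8.24 RPKM, 74 members at 100 RPKM or more, and shares of 14.5% to 14.9%. The median log2 ratio stayed between 0.05 and 0.06 under every pseudocount, filter and scaling run, and no member reached a 2-fold difference under any of them. With the smallest possible reads the exact binomial test called 16 members, all of them among the 22; the calls of Rps18, Rpl12, Rpl32, Rpl35, Rpl36a and Rps27a were lost. No paired analysis was possible because all samples belong to 1 group.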

Other observations

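The ribosomal proteins of mitochondria, taken by symbol as 76 Mrpl and Mrps genes, had medians of 21.4 and 23.2 RPKM in uterus 1 and uterus 2, and none was at 100 RPKM or more in both. Mrps21 was the highest at 79.5 and 94.1 RPKM, and Mrpl52 followed at 69.0 and 67.9 RPKM. By the exact binomial test 1 gene was called in each direction, beside 2.27% of all rows called higher and 2.6% called lower in uterus 2. The lowest, Mrps25, was at 5.81 and 4.997 RPKM, so all 76 were above 1 RPKM on average.

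The table also has 6 rows with a pseudogene suffix of a cytosolic ribosomal protein gene, of which 3 were listed at 0 in both uteri. Rps15a-ps6 was at 46.2 and 51.3 RPKM, from 73 and 90 reads, and Rps19-ps3 at 8.57 and 6.07 RPKM, from 14 and 11 reads. Rps15a-ps4 was at 0.748 and 1.69 RPKM, from 2 and 5 reads. Reads of Rps15a and of its pseudogene rows cannot be told apart where their sequences are the same. Rps15a-ps6 also overlaps a row for Nudcd3, and the part of that gene in its reads was not tested.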
